A study of Rattus norvegicus with 4 samples.

Results

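The comparison described here sets the glucocorticoid receptor (GR) library of rats given 3000 µg/kg corticosterone against the GR library of rats given 300 µg/kg. These are 2 of the 4 libraries of the series, chosen by antibody and dose from the labels. The other 2 libraries were made with normal rabbit IgG at the same doses and give the background change. All animals were male Sprague-Dawley rats, 8 weeks old, whose adrenal glands had been removed 3 days earlier, and hippocampus was taken 1 h after an intraperitoneal injection of a corticosterone-cyclodextrin complex. Each dose group had 6 animals, and sheared chromatin of several hemispheres was pooled and then divided among the antibodies, so that each of the 4 groups is 1 pooled library. GR was precipitated with the rabbit antibody H-300. The protocols state 18 rounds of amplification for the libraries at 3000 µg/kg, and no source used here gives that step for the other dose. The doses of 3000 and 300 µg/kg are called high and low below.

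GR is a nuclear receptor that sits mostly in the cytoplasm until it binds a glucocorticoid, then enters the nucleus and binds glucocorticoid response elements or other factors on DNA. Corticosterone is the main glucocorticoid of the rat. The hippocampus carries GR together with the mineralocorticoid receptor, which has the higher affinity for corticosterone, so that GR in this tissue is known to be occupied mainly at high hormone levels. Binding of GR in ChIP-seq typically appears as narrow local heaps of reads. The question was whether the high dose added reads over wide regions or at narrow sites. How much GR bound per nucleus and how many cells had bound GR cannot be told apart in pooled tissue.

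Every library held 468802 reads of 36 bases, and the comparison took those of chromosomes 1 to 20 and X. These numbered 461308 in the high-dose and 459136 in the low-dose GR library, and 459217 and 458480 in the IgG libraries. The dose ratio below divides high-dose by low-dose reads at these equal file totals. It measures relative abundance, because at equal totals more reads in some places leave fewer for the rest. Intervals are exact 95% binomial intervals that treat each count as independent and cover counting error only. Since no group has a replicate, each p-value concerns the reads of the libraries named and not the doses as conditions. Many reads are a pair of plus-strand and minus-strand reads 50 to 140 bases apart, which may be both ends of 1 fragment. Such pairs were therefore also merged and counted once, which left 391072 and 374255 fragments in the GR libraries and 337893 and 364468 in the IgG libraries, at 3000 and 300 µg/kg. Read counts make the tests too lenient and the intervals too narrow where both ends were counted. Fragment counts therefore stand beside many of the bin and chromosome results. Merging can also join reads of different fragments where reads are crowded, so fragment counts may be too low at heaps. Single dense tiles were tested on reads only.

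In 1-Mb bins the GR libraries differed between the doses in both directions, and by more than the IgG libraries did. Of 2726 bins with at least 20 reads, 134 (4.92%) held more GR reads at 3000 µg/kg and 104 (3.82%) held fewer, at an adjusted p of at most 0.05 in an exact binomial test with Benjamini-Hochberg adjustment. In the IgG libraries 7 of 2727 bins (0.257%) held more and 6 (0.22%) held fewer. On merged fragments the test called 45 GR bins higher (1.65%) and 20 lower (0.734%) of 2725, and 0 IgG bins in either direction, where 159 IgG bins (5.83%) had an unadjusted exact p under 0.05. The middle 90% of GR bin ratios ran from 0.684 to 1.32 around a median of 0.970, and that of the IgG ratios from 0.789 to 1.29 around 1.00. The SD of the log2 ratio over bins was 0.29 for GR and 0.22 for IgG. The GR and IgG log2 ratios of the same 1-Mb bin were nearly unrelated (Pearson r = -0.018 over 2726 bins, across bins of the same libraries).

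**Figure D1:**
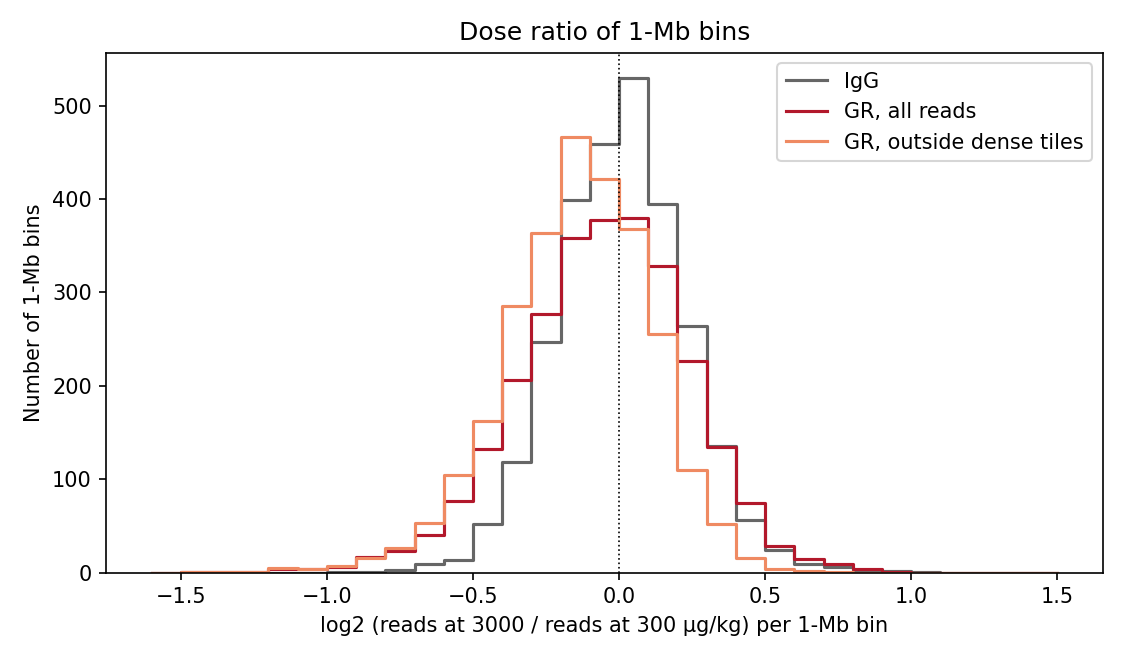
The number of 1-Mb bins is plotted against the log2 ratio of high-dose to low-dose reads (3000 against 300 µg/kg), in steps of 0.1, for IgG, for all GR reads and for GR reads outside dense 1-kb tiles. The GR curve is wider than the IgG curve (SD 0.29 against 0.22), and without the dense tiles its right side lies inside the IgG curve while the whole curve sits lower, around a median ratio of 0.915.

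The difference between the GR and IgG ratios passed the test in fewer bins. The GR dose ratio exceeded the IgG dose ratio in 59 of 2726 1-Mb bins (2.16%) and fell short of it in 47 (1.72%), by Fisher's exact test on reads with Benjamini-Hochberg adjustment. Of these, 48 of the 59 were among the 134 GR bins called higher and 25 of the 47 among the 104 called lower. On fragments this test called 6 bins higher (0.22%) and 3 lower (0.11%).

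In 100-kb bins most of the calls were gains, although more bins had a GR ratio below 1 (12903) than above 1 (10788). The bins called higher held a median of 94 GR reads over both doses and those called lower 35. The part of read number in the calls was not tested. Of 25121 bins with at least 10 reads, 215 (0.856%) held more GR reads at 3000 µg/kg and 36 (0.143%) held fewer (exact binomial, adjusted). The IgG libraries gave 2 bins with more reads (0.00782%) and 0 with fewer (0%) of 25565, with 2110 (8.25%) at an unadjusted exact p under 0.05. On fragments 31 GR bins were called higher (0.125%) and 1 lower (0.00405%) of 24704, against 1 IgG bin (0.00399%) of 25044 in either direction. Fisher's exact test against the IgG ratio on reads called 32 of 24819 bins higher (0.129%) and 17 lower (0.0685%). On fragments it called 0 of 24232 in each direction (0%), with 1215 (5.01%) at an unadjusted p under 0.05. At this depth no single 100-kb bin was thus told apart from its IgG bins on fragments.

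Narrow heaps of reads held much of the gain. A dense tile was a 1-kb tile with at least 6 reads summed over both GR libraries, a rule that treats the doses alike, and 7126 tiles covering 0.262% of the chromosomes met it. They held 50114 GR reads at the high dose and 17513 at the low dose, or 10.9% and 3.81% of the reads. The same tiles held 4579 IgG reads at the high dose (0.997%) and 3659 at the low dose (0.798%). The dose ratio in the tiles was 2.86 (2.81 to 2.91) for GR and 1.25 (1.20 to 1.31) for IgG. The high-dose IgG library thus also held more reads in these tiles, by a far smaller factor, and the part of that in the GR ratio was not tested. In 1171 tiles with at least 6 IgG reads that were not dense in GR, the GR libraries held 789 and 574 reads, a ratio of 1.37 (1.23 to 1.53), and the IgG libraries 4287 and 3500, a ratio of 1.22. GR reads were thus also more numerous at the high dose in heaps of the IgG libraries, by a smaller factor. The tiles dense in GR were chosen from the same GR reads, so the GR ratio within them is a description.

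The dose ratio grew with the height of the heap up to 39 reads. Tiles of 6 or 7 reads had a GR ratio of 2.20 (2.14 to 2.27), those of 8 or 9 reads 2.88, those of 10 to 19 reads 3.45 and those of 20 to 39 reads 3.88 (3.67 to 4.11). The 72 tiles with 40 or more reads had a ratio of 3.37 (3.12 to 3.64), below the class before. All 72 of them held more reads at 3000 µg/kg, as did 5730 of all 7126 tiles (80.4%), while 878 (12.3%) held fewer and 518 held equal numbers. The IgG ratio over the same classes was 1.13, 1.32, 1.32, 1.48 and 1.87, all above 1. The exact binomial test called 659 tiles higher (9.25%) and 0 lower (0%) at an adjusted p of at most 0.05, with 2234 (31.3%) at an unadjusted p under 0.05. Few tiles have the reads to pass: a tile of 6 reads cannot. The tile test was run on reads only, where both ends of a fragment may be counted. With tiles set on merged fragments, 3549 met the limit of 6. Of the 7126 tiles, 1235 held 0 reads at the low dose and 53 held 0 at the high dose, so that many reached 6 reads through the high-dose library alone, and these counts describe the tiles chosen.

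The 8 tiles with the most GR reads show what such a heap looks like. The fullest, at chr8:52001001-52002000 (rn4), held 87 GR reads at the high dose and 19 at the low dose, with 2 IgG reads at each dose. A second tile of the same cluster, chr8:52015001-52016000, held 53 and 20 GR reads against 4 and 1 IgG reads. The tile chr1:118371001-118372000 held 78 and 21 GR reads with 2 IgG reads at each dose. GR reads thus stood far above IgG at both doses in these tiles, and each already held a heap at the low dose. The tiles chr1:77410001-77411000, with 62 and 22 GR reads, and chr1:226343001-226344000, with 58 and 24, had ratios of 2.82 and 2.42. The tile chr20:27271001-27272000 held 53 and 21. In the tile chr10:55856001-55857000 the counts were 45 and 28, a ratio whose interval of 0.981 to 2.68 includes 1, and which did not pass the test (exact binomial, adjusted p = 0.189). The tile chr10:60196001-60197000 stood apart from the other 7. It held 70 GR reads at the high dose and 1 at the low dose, with 4 and 0 IgG reads, a ratio of 70.0 (12.2 to 2804; exact binomial on reads, adjusted p = 4.35e-16). This tile became dense, and entered the list, through its high-dose reads, so these values describe a tile chosen from the same reads. Which genes lie at these positions was not analysed here, because no rn4 annotation was used here.

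The excess faded within a few kilobases of the dense tiles. At 1 to 2 kb from the nearest dense tile the GR dose ratio was 1.49 (1.43 to 1.55), at 2 to 5 kb 1.13 (1.10 to 1.16) and at 5 to 10 kb 1.04 (1.01 to 1.06). It was 1.02 at 10 to 20 kb and 0.977 at 20 to 50 kb. The decline did not end there: the ratio was 0.953 at 50 to 100 kb, 0.927 at 100 to 200 kb, 0.881 at 200 to 500 kb, 0.866 at 500 to 1000 kb and 0.839 (0.827 to 0.852) beyond 1000 kb. The GR ratio therefore fell step by step over the whole range of distances, and not only near the heaps. The IgG ratio lay between 0.981 and 1.04 at all distances from 1 kb on, and was 1.04 (1.02 to 1.05) beyond 1000 kb, where that of GR was lowest. On fragments, at the same tiles, the GR ratio was 2.63 in the tile, 1.44 at 1 to 2 kb, 0.967 at 50 to 100 kb and 0.851 (0.837 to 0.865) beyond 1000 kb. The tiles then held 34546 GR fragments at the high dose and 12555 at the low dose, in place of 50114 and 17513 reads. Where the ratio crosses 1 depends on the scaling. Scaled to the reads outside dense tiles, a scaling added after the data were seen, it was 3.09 in the tile, 1.22 at 2 to 5 kb, 1.03 at 50 to 100 kb, 1.00 at 100 to 200 kb and 0.907 beyond 1000 kb.

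**Figure D2:**
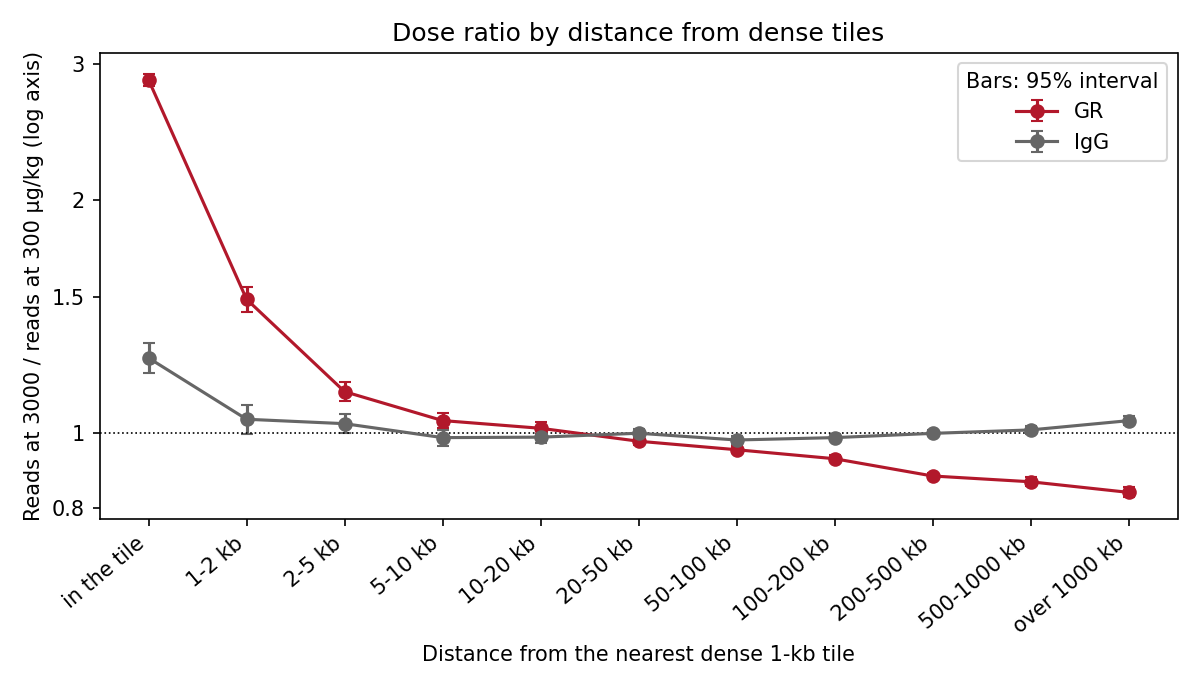
The ratio of high-dose to low-dose reads (3000 against 300 µg/kg) (log axis) is plotted against the distance from the nearest dense 1-kb tile, for GR and IgG, with 95% intervals from counting error. GR falls from 2.86 in the tile to 1.13 at 2 to 5 kb and on to 0.839 beyond 1000 kb, while IgG stays between 0.981 and 1.04 outside the tiles.

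Fewer wide bins were called higher with the dense tiles left out, and how many fewer depended on the scaling. The tiles hold mostly high-dose reads, so leaving them out lowers the GR ratio by construction. Outside the tiles and 1 kb on each side the GR libraries held 404473 and 437113 reads, a ratio of 0.925 (0.921 to 0.929), and the IgG libraries 450489 and 450843, a ratio of 0.999. At equal file totals, 3 1-Mb bins (0.11%) were then called higher and 80 (2.93%) lower. All 3 were among the 134, and 64 of the 80 were among the 104. Because the tiles took more reads from the high-dose library, the split of these calls follows the scaling: scaled to the reads left outside the tiles, 19 bins were called higher and 14 lower, and with median-of-ratios or TMM factors 24 and 12. On fragments at the same tiles, scaled to what was left, it was 1 (0.0367%) and 3 (0.11%). Of the 100-kb bins, 3 (0.012%) were still called higher and 1 (0.00398%) lower at equal totals, and on fragments 0 in each direction (0%), with 1037 (4.2%) at an unadjusted exact p under 0.05. Fisher's exact test against IgG outside the tiles called 2 1-Mb bins higher (0.0734%) and 45 lower (1.65%) on reads, and 0 100-kb bins in each direction (0%), with 2175 (8.77%) at an unadjusted p under 0.05.

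The bins that gained were those with many heaps. The 134 1-Mb bins called higher held 42388 reads at the high dose and 29679 at the low dose, a ratio of 1.43, with an IgG ratio of 0.992. A dense tile was present in 131 of them (97.8%), against 71.5% of all bins tested, and the median number of dense tiles was 8 against 2. These bins also held more GR reads, a median of 544.5 over both doses against 334 for all bins. A bin with more reads can more easily hold a dense tile and pass the test, and that part was not tested. Dense tiles and the 1 kb around them held 67.5% of the 12709 additional reads. The rest of these bins still had a ratio of 1.16 (1.14 to 1.18), in bins chosen for their high ratio. Without its fullest 100-kb bin, which had a ratio of 2.05, the remainder of each 1-Mb bin came to 1.31 (1.29 to 1.33) in sum, and 44 of the 134 were still called. A 100-kb bin called higher lay in 81 of them. The fullest 100-kb bins held 38.9% of the additional reads in sum, and a median of 7 of the 100-kb bins of a 1-Mb bin held more reads and 2 held fewer. The 45 bins called higher on fragments all held a dense tile, with a median of 12, and 61.4% of their added fragments lay in the tiles and the 1 kb around them.

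The bins that lost reads were poor in heaps, and their loss was even. The 104 1-Mb bins called lower held 10372 reads at the high dose and 15930 at the low dose, a ratio of 0.651 (0.635 to 0.667), with an IgG ratio of 0.991. Only 39 of them (37.5%) held a dense tile. These bins also held fewer GR reads, a median of 242 over both doses against 334 for all bins. The ratio was 0.653 in their fullest 100-kb bins and 0.651 in the rest, and a median of 8 of 10 100-kb bins held fewer reads. Without dense tiles the ratio was 0.644. On fragments the 20 bins called lower had a ratio of 0.572 (0.535 to 0.611), and 4 of them held a dense tile.

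The same order appeared over all 1-Mb bins, called or not. Dense tiles were set by the same GR reads and held mostly high-dose reads. Bins with more tiles therefore have higher whole-bin ratios in part by construction, and the classes are a description. The 776 bins without a dense tile had a GR ratio of 0.853 (0.845 to 0.861), the 529 with 1 tile 0.914, the 659 with 2 or 3 tiles 0.990, the 472 with 4 to 6 tiles 1.08, the 220 with 7 to 10 tiles 1.17 and the 70 with 11 or more 1.33 (1.30 to 1.35). Of the 134 bins called higher, 38, 41 and 43 lay in the 3 classes with most tiles, and of the 104 called lower 65 held none. The IgG ratio ran the other way over a narrow range, from 1.03 without a tile to 0.982 with 4 to 6 tiles and 0.991 with 11 or more. Reads outside the tiles kept the order, with GR ratios of 0.853, 0.888, 0.929, 0.973, 0.987 and 1.03 from the fewest to the most tiles. On fragments these ratios outside the tiles were 0.865, 0.903, 0.942, 0.986, 1.00 and 1.04. A graded difference between tile-rich and tile-poor bins was therefore present in reads that lay in no dense tile. Tiles under the limit of 6 reads are part of those reads.

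Read coverage in the IgG libraries moved with the same order. With the 1-Mb bins divided into 5 equal classes by their IgG reads, the GR ratio was 0.876 in the lowest class, then 0.920, 0.956 and 1.03, and 1.11 in the highest. Outside dense tiles it was 0.849, 0.878, 0.900, 0.944 and 0.987, and in bins without any dense tile it was 0.828 (0.815 to 0.842, 383 bins) in the lowest class and 0.893 (0.862 to 0.924, 35 bins) in the fourth. The number of dense tiles per bin rose over the same classes, from 0.463 to 5.79 on average. The IgG ratio fell from 1.03 to 0.988. Bins in which IgG reads were frequent thus had more heaps and higher GR ratios, and the part of coverage in the GR ratio was not tested.

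Among the 8 called 1-Mb bins with the highest GR ratio, 1 held its gain at a single site and most held several sites. The highest, chr10:60000001-61000000, held 162 GR reads at the high dose and 86 at the low dose, against 104 and 101 IgG reads. Of these, 108 and 17 lay in the 100-kb bin chr10:60100001-60200000, which contains the tile with 70 and 1 reads, and the rest of the bin had a ratio of 0.783 (0.538 to 1.13). Its GR ratio did not pass the test against the IgG ratio (Fisher's exact test on reads, adjusted p = 0.0524). On fragments, with 120 and 79, this bin was not called (exact binomial, adjusted p = 0.153). The other 7 were called on fragments too.

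The bin chr20:6000001-7000000 held 523 and 284 GR reads and 226 and 256 IgG reads, a GR ratio of 1.84. It contained 18 dense tiles, and 2 neighbouring 100-kb bins carried most of the gain, with 118 against 36 and 189 against 56 reads. In these 2 the IgG reads were also more numerous at the high dose, with 28 against 19 and 38 against 16. The other 8 100-kb bins of this 1-Mb bin held between 14 and 62 GR reads at the high dose and between 16 and 40 at the low dose. This was the only one of the 8 bins in which the GR ratio differed from the IgG ratio on fragments (Fisher's exact test, adjusted p = 0.0021). In chr8:52000001-53000000, with 512 and 285 GR reads and 227 and 234 IgG reads, the first 100-kb bin held 287 and 109 and the rest had a ratio of 1.28. The bin chr15:57000001-58000000 held 461 and 270 reads and 19 dense tiles, and chr18:15000001-16000000 held 274 and 159 reads and 7 dense tiles. In both, 3 of the 100-kb bins were called higher.

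In 2 of the 8 bins the IgG ratio was also well above 1. The bin chr1:118000001-119000000 held 500 and 276 GR reads and 275 and 214 IgG reads, an IgG ratio of 1.29 (1.07 to 1.54). The bin chr11:63000001-64000000 held 424 and 238 GR reads and 256 and 200 IgG reads, an IgG ratio of 1.28. In these 2, as in the bin on chromosome 10, the GR ratios of 1.81 and 1.78 did not pass the test against IgG on reads (Fisher's exact test, adjusted p = 0.0734 and 0.108), while the other 5 of the 8 did.

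Gain outside heaps was called in 3 bins. The bin chr12:43000001-44000000 held 319 and 189 GR reads and 237 and 235 IgG reads, and outside its 7 dense tiles 253 and 168, a ratio of 1.51 (1.23 to 1.84; exact binomial, adjusted p = 0.00911). Within it, chr12:43700001-43800000 held 89 and 20 GR reads, tiles included, and was called higher by itself. The rest of that 1-Mb bin had a ratio of 1.36 (1.11 to 1.67). The bin chr2:142000001-143000000 held 259 and 171 GR reads against 194 and 197 IgG reads, with a ratio of 1.41 outside 3 dense tiles. The bin chr11:68000001-69000000 held 385 and 269 GR reads against 285 and 243 IgG reads, with a ratio of 1.35 (1.14 to 1.60) outside 10 dense tiles. All 10 of its 100-kb bins held more reads at the high dose, as did 9 of 10 in the bin on chromosome 2, and none of them was called by itself. The GR ratio of 1.43 on chromosome 11 did not pass the test against the IgG ratio of 1.17 (Fisher's exact test, adjusted p = 0.367). On fragments the bin on chromosome 2 was not called before any tile was left out (exact binomial, adjusted p = 0.0653), and the other 2 were. Outside dense tiles set on fragments, at the fragment totals, 0 1-Mb bins were called higher, so none of the 3 calls outside the tiles held on fragments there. At the tiles set on reads and scaled to the fragments left, 1 bin was called higher and 267 (9.8%) had an unadjusted exact p under 0.05 in either direction.

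**Figure D3:**
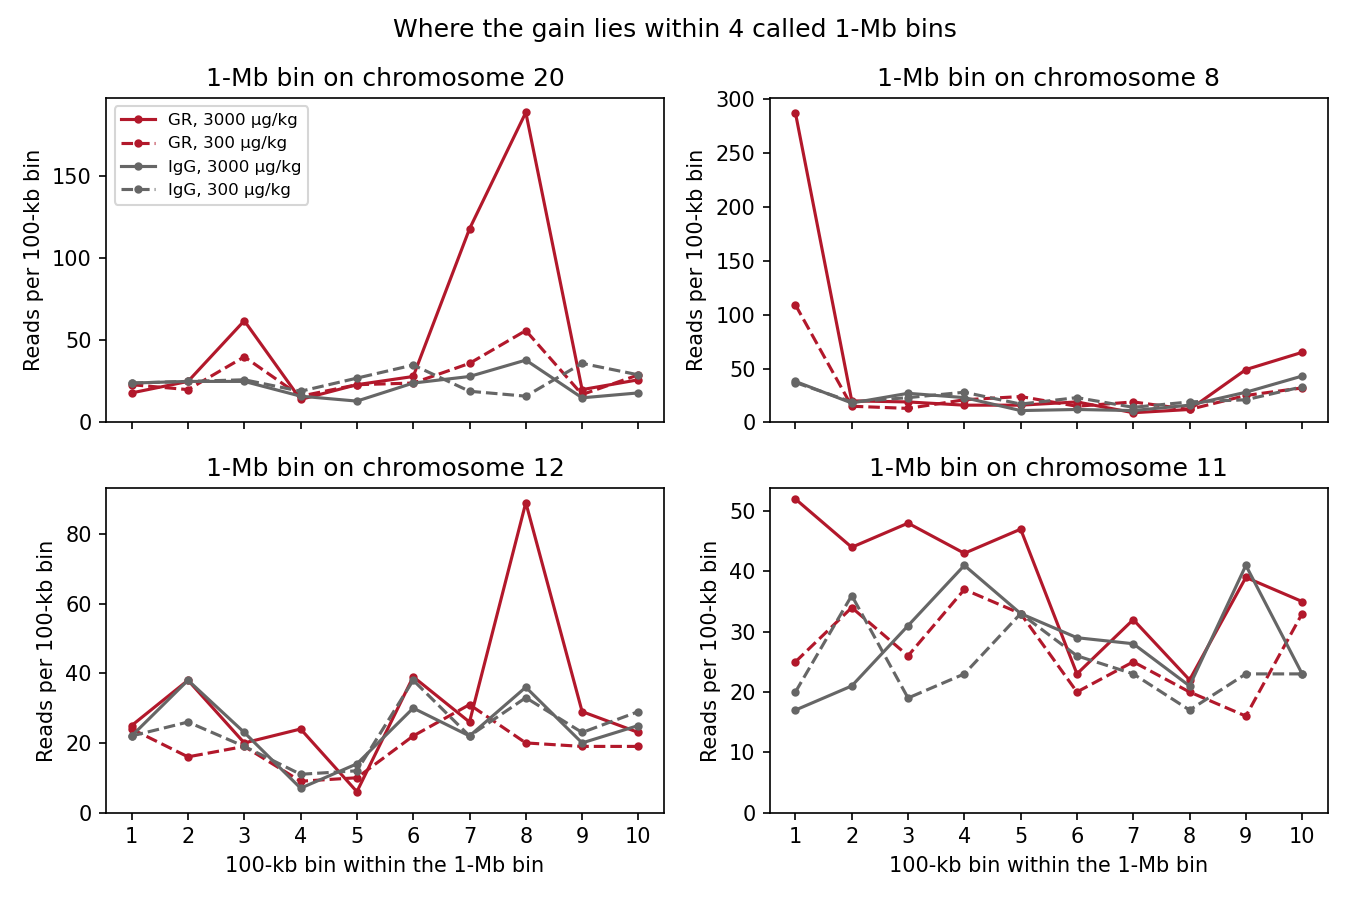
Reads per 100-kb bin are plotted along 4 1-Mb bins (10 steps each) for the GR libraries (red) and the IgG libraries (grey) at 3000 µg/kg (solid) and 300 µg/kg (dashed). On chromosomes 20, 8 and 12 the high-dose GR line stands out in 1 or 2 steps (189, 287 and 89 reads at the highest), and on chromosome 11 it lies above the low-dose GR line in all 10 steps without a single high one.

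The called 1-Mb bins of lowest ratio held few reads and almost no heaps. The lowest, chr1:49000001-50000000, held 36 GR reads at the high dose and 92 at the low dose, against 89 and 93 IgG reads, a ratio of 0.391 (0.258 to 0.581). The bins chr14:53000001-54000000 (25 and 59 GR reads), chr4:168000001-169000000 (44 and 95) and chr6:140000001-141000000 (51 and 105) followed the same pattern. In the first 2 of these 3 the IgG reads were 60 and 52, and 99 and 88. In chr1:49000001-50000000 and these 2 the high-dose GR library stood low and the other 3 libraries lay near one another, which did not hold for all 8. The bins chr1:70000001-71000000 (45 and 91), chr1:142000001-143000000 (59 and 118) and chr14:1-1000000 (36 and 75) completed the list with chr5:173000001-174000000 (18 and 41), which is cut short by the end of the chromosome. In that last bin the IgG reads were 17 and 19, so that the low-dose GR library stood high and the other 3 lay near one another. Of the 8 bins, 7 held no dense tile and chr14:1-1000000 held 1. On reads GR differed from IgG in chr1:49000001-50000000, chr14:53000001-54000000, chr4:168000001-169000000, chr1:70000001-71000000 and chr1:142000001-143000000 (Fisher's exact test, adjusted p between 0.00668 and 0.0368). In the rest of the 8 it did not. On fragments 4 of the 8 were called, and in none did GR differ from IgG by Fisher's exact test (adjusted p between 0.0637 and 0.739).

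At 100 kb the called bins of highest ratio held 0 to 2 dense tiles each and few reads at the low dose. The bin chr6:24200001-24300000 held 59 and 9 GR reads with 17 IgG reads at each dose, a ratio of 6.56 (3.23 to 15.0), and was 1 of the 3 still called outside dense tiles, with 37 and 7 reads. The bin chrX:21300001-21400000 held 55 and 9 GR reads against 5 and 6 IgG reads. Outside their 2 dense tiles chr15:24100001-24200000 held 31 and 9 reads and chr2:28700001-28800000 held 31 and 7, so that much of their gain lay outside the tiles. Neither was called there (exact binomial on reads, adjusted p = 0.225 and 0.127). The bins chr15:24100001-24200000, with 54 and 10 GR reads against 16 and 22, and chr2:28700001-28800000, with 44 and 9 against 15 and 25, also passed the test against IgG on reads (Fisher's exact test, adjusted p = 0.0257 and 0.0215). So did chr10:60100001-60200000 (adjusted p = 0.00986). The other 5 held 20 to 29 GR reads at the high dose and 1 to 5 at the low dose. Among them, chr8:3200001-3300000 held 20 and 1 GR reads but also 21 and 10 IgG reads, and chr7:62100001-62200000 held 20 and 3 without a dense tile. Of the 10 bins, 4 were called on fragments: those on chromosomes 6 and 15, chr10:60100001-60200000 and chrX:21300001-21400000.

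The 5 called 100-kb bins of lowest ratio held 0 to 3 GR reads at 3000 µg/kg. In chr1:70200001-70300000 the counts were 0 and 15 GR reads and 11 and 4 IgG reads. A count of 0 allows up to 3 reads, and the upper limit of the ratio was 0.279. In chr2:103900001-104000000 they were 2 and 25 GR reads with 19 IgG reads at each dose, and this was the only one of the 5 called on fragments. The others were chr1:151200001-151300000 (2 and 20), chr6:6100001-6200000 (2 and 18) and chr3:162300001-162400000 (3 and 25). None of the 5 held a dense tile.

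Around the 215 100-kb bins called higher the gain fell off steeply. These bins held 15365 GR reads at the high dose and 5856 at the low dose, a ratio of 2.62 (2.55 to 2.70), with 5722 and 5388 IgG reads, a ratio of 1.06 (1.02 to 1.10). A dense tile was present in 209 of them (97.2%), against 19.9% of all bins tested, and tiles with the 1 kb around them held 70.6% of the 9509 additional reads. The called bins also held more GR reads, a median of 94 over both doses against 33 for all bins. In bins next to those called higher the GR ratio was 1.16 (1.13 to 1.19), then 1.09, 1.05, 1.04 and 1.02 (0.994 to 1.05) at 2 to 5 bins away. Outside dense tiles the flanks were at 1.02, 0.976, 0.929, 0.950 and 0.941, near the 0.927 of all bins from the third on. The excess around a called bin thus reached 4 bins (interval above 1) with the dense tiles counted, and without them the first and second neighbours lay above the 0.927. Bins next to the 36 called lower had ratios of 0.986, 0.985, 0.935, 0.979 and 1.04. Neighbouring bins resembled one another weakly, with Pearson r = 0.15 between log2 GR ratios of adjacent 1-Mb bins (2703 pairs) and 0.071 of adjacent 100-kb bins (24076 pairs), against 0.064 and 0.0047 for IgG. Outside dense tiles the GR values were 0.067 for 1-Mb bins, near that of IgG, and 0.039 for 100-kb bins.

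The spread of the dose difference grew with bin width. Dispersion was taken as the mean over bins of the squared difference of reads divided by their sum, centred on the totals, which is 1 where counting error is all there is. On fragments it was 1.03 for GR and 1.00 for IgG in 1-kb bins, 1.07 and 1.01 in 10-kb bins, 1.28 and 1.02 in 100-kb bins and 2.15 and 1.17 in 1-Mb bins. IgG stayed near counting error up to 100 kb, and GR left it. Wider bins hold more reads, so that a given relative difference raises this measure more in them, and it does not rank the widths. On all reads it was higher for both, at 3.04 and 1.68 in 1-Mb bins, where both ends of a fragment are counted. Outside dense tiles it came to 1.92 for GR and 1.68 for IgG in 1-Mb bins and to 1.43 and 1.48 in 100-kb bins. Once the tiles were left out the GR dispersion on reads was thus below that of IgG in 100-kb bins and above it in 1-Mb bins. The IgG libraries held more merged pairs, 121324 and 94012 at 3000 and 300 µg/kg, against 70236 and 84881 for GR. Counting both ends raises this measure, so this order on reads does not rank GR and IgG. Dispersion outside the tiles was not taken on fragments. The tiles were set by GR reads, so leaving them out trims the GR counts and hardly the IgG counts.

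**Figure D4:**
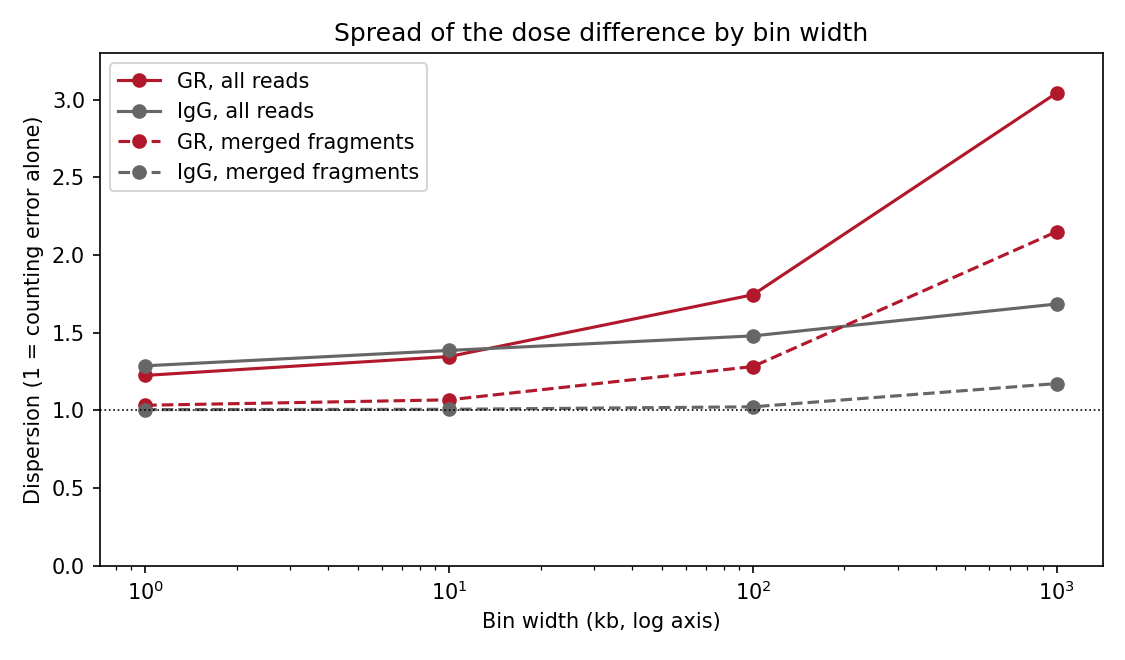
Dispersion of the dose difference (1 for counting error alone) is plotted against bin width (log axis) for GR and IgG, on all reads (solid) and on merged fragments (dashed). On fragments IgG stays between 1.00 and 1.17, while GR rises from 1.03 in 1-kb bins to 2.15 in 1-Mb bins.

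Whole chromosomes differed by a few percent, and broadly in the order of their heaps. Of the 21 chromosomes 2 (9.52%) were called higher and 3 (14.3%) lower at 3000 µg/kg (exact binomial, adjusted over 21). Chromosome 10 held 24458 and 23156 GR reads, a ratio of 1.06 (1.04 to 1.08), and 22201 and 22931 IgG reads, a ratio of 0.968. Chromosome 12 held 9511 and 8876 GR reads, a ratio of 1.07 (1.04 to 1.10), with an IgG ratio of 0.948. These 2 had the most dense tiles per Mb, 4.58 and 4.55. Chromosome X, with the fewest (0.342 per Mb), had the lowest GR ratio, 0.949 (0.924 to 0.975; 10434 and 10998 reads), and an IgG ratio of 1.04. Chromosomes 2 and 14 were also called lower, at 0.974 and 0.967. Chromosome X held fewer GR reads over 160686370 bases than chromosome 15 did over 109756890 (17904 and 17701). Tiles on X thus reach 6 reads less easily, and the part of that in its tile number was not tested. Against the IgG ratio, chromosomes 10, 12 and 19 were higher (14.3%) and 2 and X lower (9.52%) by Fisher's exact test, on reads and on fragments alike. On fragments the GR test called the same 5 chromosomes and chromosome 11, at 1.03, whose IgG ratio was 1.06. The IgG libraries alone also differed on fragments, higher at 3000 µg/kg on chromosomes 2 and 11 and lower on 10, 12 and 19 (exact binomial, adjusted p between 0.00066 and 0.0425). Chromosome 19 was not called for GR (exact binomial, adjusted p = 0.0785 on reads and 0.293 on fragments), and its IgG ratio on reads was 0.958.

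The GR log2 ratio followed dense tiles per Mb across the 21 chromosomes (Pearson r = 0.866, and 0.827 without X), and the IgG log2 ratio ran against them (r = -0.742, and -0.724 without X). These are descriptions over chromosomes of the same libraries, and the tiles were set by the same GR reads. Outside dense tiles r for GR was 0.339, and every chromosome lay below 1, from 0.893 on chromosome 20 to 0.949 on chromosome 11. The dose difference between chromosomes was thus smaller without the heaps. An IgG difference of the opposite sign moved with it, and its part in the test against IgG was not tested.

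**Figure D5:**
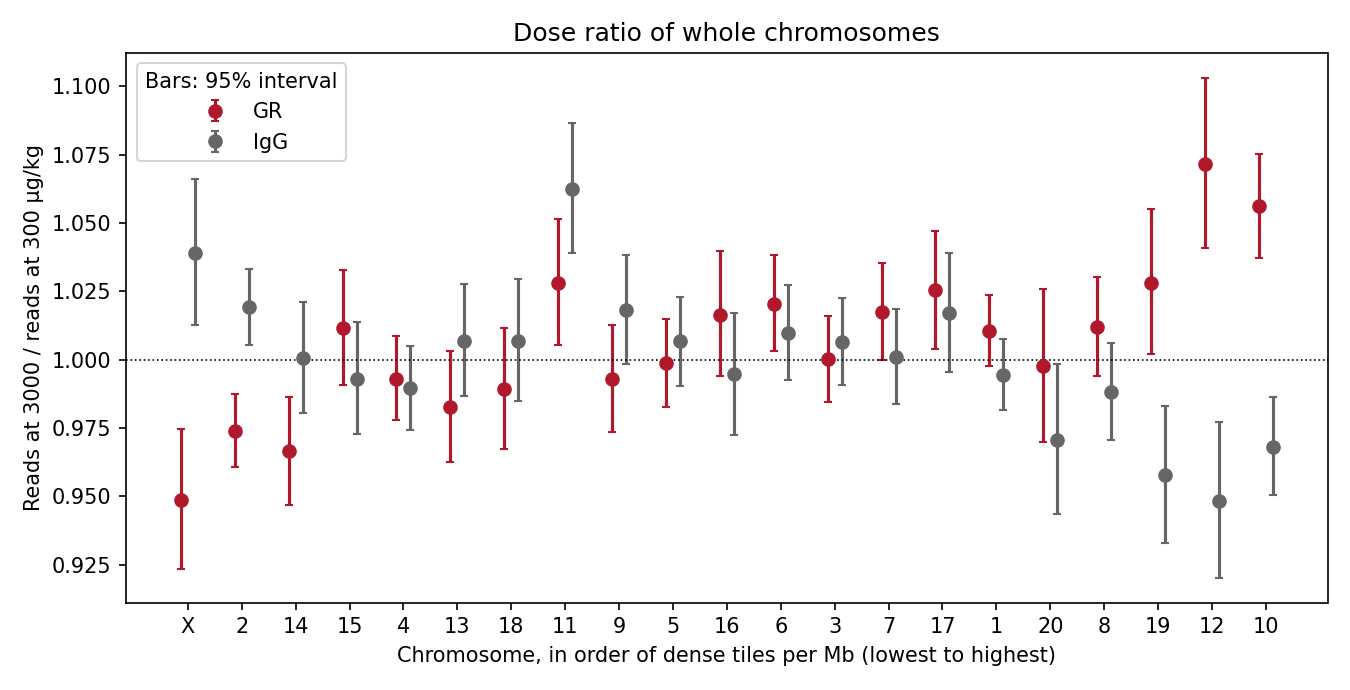
The ratio of high-dose to low-dose reads (3000 against 300 µg/kg) is plotted for each chromosome, for GR and IgG, with 95% intervals from counting error, ordered by dense tiles per Mb from 0.342 (X) to 4.58 (chromosome 10). GR is lowest on X (0.949) and highest on chromosome 12 (1.07), and IgG has its lowest values on chromosomes 12, 19 and 10.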

How the data were processed

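The 4 deposited files list aligned reads, 1 per line, each with a count of 1, so the unit is the read count, per the file contents. In the submitters' processing notes stand bedtools, MACS and the build rn4. Not given in the sources used here were the aligner, the filters and the step that gave all files 468802 reads. Reads on chromosomes 1 to 20 and X were placed by their 5′ end in bins counted from position 0, with at least 20 (1 Mb) or 10 (100 kb) reads over both libraries. Ratios were tested with exact two-sided binomial tests and, against IgG, Fisher's exact tests, with Benjamini-Hochberg adjustment over all bins. The callers were tested on simulated data. Python 3.11.15, NumPy 2.4.6, SciPy 1.17.1, R 4.3.3 and edgeR 4.0.16 (for TMM factors only) were used. Named were the 8 called 1-Mb bins of highest and of lowest ratio, the 10 and 5 such 100-kb bins, up to 5 1-Mb bins still called higher outside dense tiles (3 were), and the 8 dense tiles with most reads, ranked with 0.5 reads added to each count. The comparison, bins and rules were chosen with earlier results of these data known. Alternatives covered scaling, merged fragments, strands, filters, bin position, a 1.5-fold limit and the definition of dense tiles. Descriptions of bins, distances and chromosomes on fragments at the same tiles were added after the data were seen.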

Additional observations from a re-analysis of the deposited data

Results flagged for a closer look

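The GR dose ratio differed from the IgG dose ratio, by Fisher's exact test with an adjusted p of at most 0.05, in 59 1-Mb bins upward and 47 downward and in 32 100-kb bins upward and 17 downward. On merged fragments it differed in 6 1-Mb bins upward and 3 downward, and in 0 100-kb bins. The test compares the reads of 4 libraries.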

How the results depend on the processing

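No paired analysis was possible because each group is 1 pooled library, and for the same reason no library could be left out. The depth of 468802 reads, a median of 334 GR reads per 1-Mb bin and 33 per 100-kb bin over both doses, limits single bins to large ratios. In the values below, a pair gives bins higher and lower at 3000 µg/kg, and the cause of each shift was not tested. The fragment and single-strand settings use fewer counts. The GR 1-Mb calls (134 and 104) became 45 and 20 on merged fragments, 36 and 11 on plus-strand reads, 28 and 7 on minus-strand reads, 28 and 63 with a 1.5-fold limit, and 282 and 45 when scaled to reads outside dense tiles. With median-of-ratios factors 67 were lower. The GR 100-kb calls (215 and 36) became 31 and 1 on fragments, 32 and 1 on plus-strand reads and 33 and 0 on minus-strand reads, and 331 and 348 were higher with TMM and with outside scaling. The IgG 1-Mb calls (7 and 6) became 0 and 0 on fragments, on plus-strand reads and with bins moved by 0.5 of their width. The IgG 100-kb bins called higher (2) became 1 on fragments and 0 on plus-strand reads, and 2 were lower with moved bins. The calls against IgG became 6 and 3 (fragments), 8 and 3 (plus strand) and 134 and 27 (outside scaling) at 1 Mb. At 100 kb they became 0 and 0 on fragments and on plus-strand reads, with 54, 57 and 57 higher under median-of-ratios, TMM and outside scaling and 11 lower with moved bins.

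Outside dense tiles the 1-Mb calls (3 and 80) became 24 and 12 with median-of-ratios and with TMM factors, 19 and 14 with outside scaling, 0 and 6 on fragments and on minus-strand reads, and 0 and 1 on plus-strand reads. Bins called higher there were 1 with the 1.5-fold limit and with 5 kb left out on each side, 0 with dense tiles of at least 4 reads and 32 with at least 10. The 100-kb calls outside dense tiles (3 and 1) became 5 and 0 with median-of-ratios and TMM factors and 18 and 5 with tiles of at least 10 reads. They became 0 and 0 on fragments, on either strand, with moved bins, with tiles of at least 4 reads or from all 4 libraries, and with 5 kb left out, and 0 were lower with outside scaling. The distance profile fell over the 4 distances below under each setting, and its crossing of 1 moved. In the tile, at 2 to 5, 50 to 100 and 500 to 1000 kb, the ratio was 1.94, 0.982, 0.869 and 0.794 with tiles of at least 4 reads, 3.54, 1.35, 1.04 and 0.928 with at least 10, 2.27, 1.04, 0.898 and 0.836 with tiles from all 4 libraries, and 3.09, 1.22, 1.03 and 0.936 with outside scaling. With tiles set on fragments it was 1.26, 1.01 and 0.904 at the last 3 distances. The share of GR reads in dense tiles at 3000 and 300 µg/kg was 19.7% and 10.2% with at least 4 reads, 5.41% and 1.54% with at least 10, 14.6% and 6.45% with all 4 libraries, 5.99% and 2.07% on fragments, and 10.7% and 3.74% of the file totals. Dispersion in 1-Mb bins on plus-strand reads was 1.90 for GR and 1.11 for IgG. Over all results and settings, 106 values moved, 4 changed direction and 104 stayed within the limits set for a change.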
